A study of Mus musculus with 10 samples.

Results

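Arc, Homer1, Nptx1, Nptx2, Nptxr, Ptgs2, Inhba and Plk2 are genes whose products act at synapses and in signalling between neurons, and most of them are known to be induced by neuronal firing. They were taken by name from the deposited count table, which writes them in capitals as ARC, HOMER1, NPTX1, NPTX2, NPTXR, PTGS2, INHBA and PLK2. They are 8 of its 24982 genes, and all 8 passed the filter on low counts, which left 14867 genes. The table covers micro-dissected dentate gyri, the part of the hippocampus where granule neurons sit, from 10 male mice aged 10 weeks on a C57BL/6 strain background. The samples were 5 mice with a global Fndc5 knockout (KO) and 5 wild-type mice (WT), each giving 1 library of mRNA, and no treatment or exercise is named for either group. Fndc5 encodes the membrane protein from which the secreted myokine irisin is cleaved. It was measured at 51.3 ± 4.27 CPM (counts per 1000000 reads counted, scaled by the TMM method) in KO mice and 75.3 ± 4.60 CPM in WT mice (SD, n = 5 each), and every KO library was below every WT library. Libraries held 26226375 to 43802079 counts. The counts per gene do not show which Fndc5 exons the remaining KO reads come from.

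Neuronal firing switches on a first set of genes within minutes, many of which encode transcription factors, and a set of effectors that change the synapse itself. Some effectors act inside the cell on the postsynaptic scaffold and on receptor traffic, and others are secreted and act on neighbouring synapses or cells. In the dentate gyrus these genes are known as markers of recent granule neuron activity. Not every gene here has that history: Nptx2, also called Narp, is the inducible neuronal pentraxin, while Nptx1 and the membrane-anchored Nptxr are known as more steadily expressed relatives.

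Promoter sequences from RefSeq (GRCm38.p6) were matched for Homer1, Plk2, Ptgs2 and Inhba. The 250 bases before each start site were searched on both strands for the cyclic AMP response element TGACGTCA (CRE), its core TGACG, the AP-1 site as TGACTCA or TGAGTCA, and the E-box CACGTG. The 120 bases before the start are shown for Plk2 and for the upstream of 2 Homer1 starts, since these were the windows with a match. Both lie on the plus strand of chromosome 13, at chr13:110394924-110395043 for Plk2 and chr13:93303637-93303756 for Homer1, and capitals mark the CRE or its core.
Plk2: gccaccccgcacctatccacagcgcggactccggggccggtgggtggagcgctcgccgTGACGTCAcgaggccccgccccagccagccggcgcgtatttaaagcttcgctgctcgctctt
Homer1: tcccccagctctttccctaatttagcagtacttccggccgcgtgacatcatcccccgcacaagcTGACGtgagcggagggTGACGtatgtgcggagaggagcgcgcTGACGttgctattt
The Plk2 window held a full CRE beginning 62 bases before the start, a match found in 1.55% of the 32851 promoters of the same length. The Homer1 window held 3 cores, beginning 56, 40 and 14 bases before the start. At least 1 core was present in 17.8% of all promoters and 3 or more in 0.688%, where a full CRE counts as 2 because it holds a core on each strand. The second Homer1 start, Ptgs2 and Inhba had no match to these letters in the 250 bases, and no AP-1 site or E-box was matched in any of the 5 windows. Bases after the annotated starts were not searched, so a missing match holds for these windows only and depends on where the start is placed. A match describes the letters only and is not a measured binding site.

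Levels were compared between genes as CPM per kilobase of merged exons (GENCODE M21). Nptx1 was by far the highest, at 291.9 ± 17.7 CPM per kilobase in KO mice and 289.9 ± 8.73 in WT mice, which places it at the 99.7th percentile of the tested genes in WT. Plk2 followed at 31.8 ± 1.96 in KO mice and 34.7 ± 3.00 in WT mice, and Arc at 14.7 ± 2.47 in KO mice and 17.5 ± 2.40 in WT mice. The other genes of the set were lower still. Ptgs2 was at 6.95 ± 0.991 CPM per kilobase in KO mice and 8.54 ± 1.40 in WT mice, and Nptx2 at 5.13 ± 0.365 in KO mice and 6.40 ± 1.29 in WT mice. Homer1 was at 5.47 ± 0.168 CPM per kilobase in KO mice and 5.87 ± 0.239 in WT mice, and Nptxr at 3.09 ± 0.269 in KO mice and 3.16 ± 0.731 in WT mice. The merged exons of Homer1 span 11.976 kilobases over 12 transcripts, while its transcript with the longest coding part has 4287 bases. The level of Homer1 and its place in this order therefore depend on the length used. For Plk2 the lengths are 4.491 kilobases and 2800 bases. Inhba was the lowest, at 1.97 ± 0.220 in KO mice and 2.45 ± 0.342 in WT mice. The neighbours Ptgs2 and Nptx2, Nptx2 and Homer1, and Nptxr and Inhba overlapped in WT within 1 SD of each mean. The place of Nptxr is also uncertain, since its gene overlaps Npcd on the same strand.

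No gene of the set passed the threshold of 0.05 for the adjusted p in the edgeR comparison of genotypes over all 14867 genes, where Fndc5 was the only gene called (0.00673% of genes tested). Log2 fold changes, KO over WT, were below 0 for 7 of the 8 genes, against 49.3% of all genes, with a median of -0.19 against 0.0016 over all genes. Arc, Homer1, Nptx2, Ptgs2, Inhba and Plk2 had an unadjusted p under 0.05 with lower values in KO, 6 of 8, against 3.75% of all genes in this direction and 6.29% in either direction. Without WT mouse 1 that count was 3, against 4.15% of all genes in this direction. It was 4 without KO mouse 1, KO mouse 2 or WT mouse 4, against 2.88%, 5.1% and 4.26% of all genes. Of all genes at an unadjusted p under 0.05, 59.6% were lower in KO with TMM and 42.6% with upper-quartile scaling. With upper-quartile scaling 5 of the 8 effectors were counted and Plk2 was not, against 2.72% of all genes in this direction. The set was named with earlier results of these mice known, in which Inhba and Nptx2 already stood among the lower genes, so these counts are a description and not independent evidence of a direction. The KO and WT libraries overlapped for all 8 genes, while every KO library lay below every WT library for 0.437% of all genes and above it for 0.457%. In bulk tissue, fewer cells of a type and less RNA per cell cannot be told apart.

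**Figure D1:**
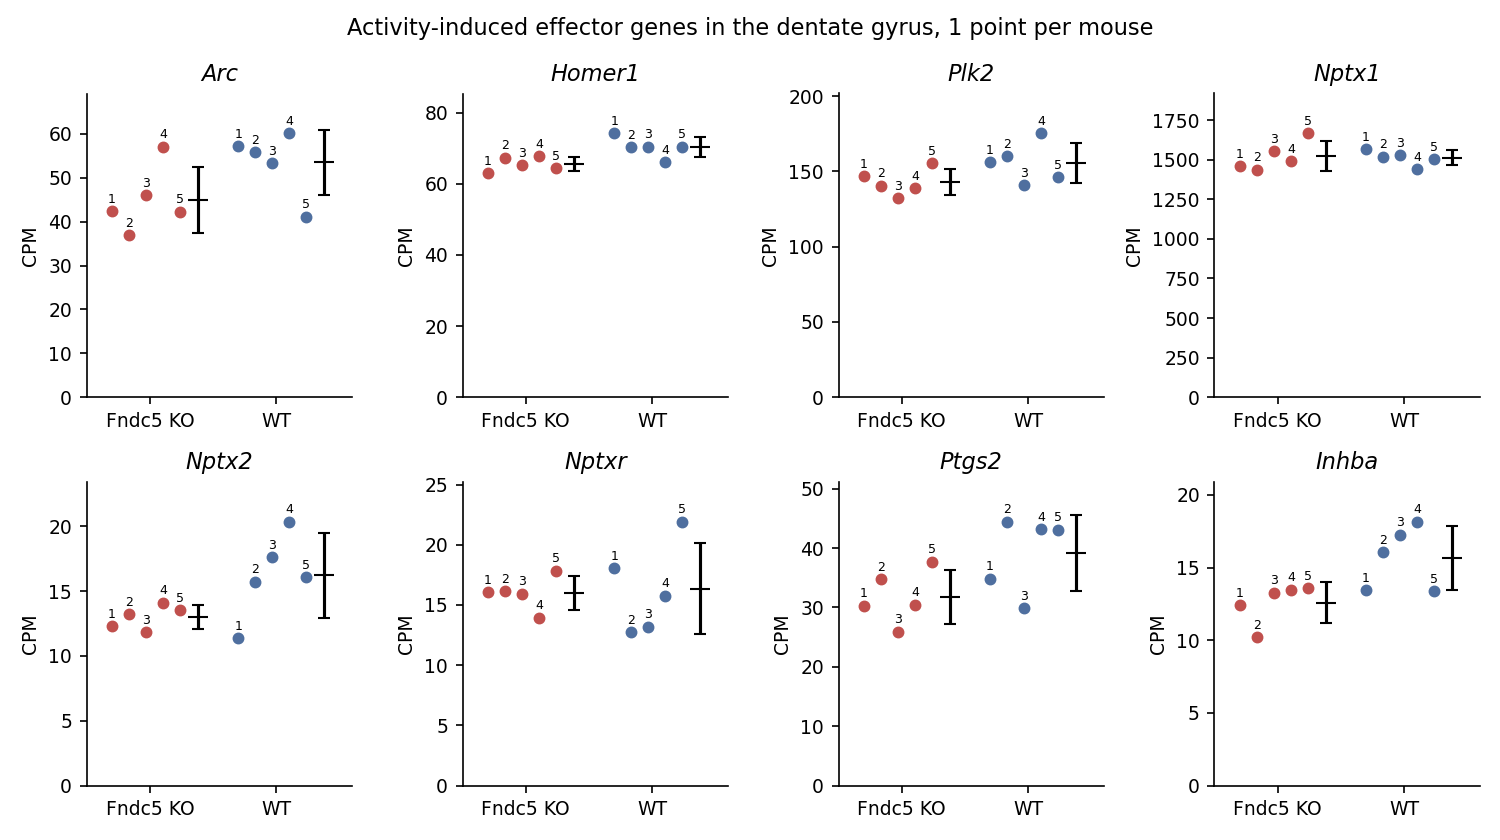
CPM of each effector gene in each mouse, with KO mice at the left and WT mice at the right of every panel, the mouse number above each point, and the mean ± SD as a bar (5 mice per genotype). Groups overlap in every panel, with the KO mean at 13.0 CPM for Nptx2 against 16.2 CPM in WT, and near-equal means for Nptx1 and Nptxr.

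Arc (chr15:74669083-74672570, minus strand, GRCm38 as for all positions) encodes a postsynaptic protein that promotes the removal of AMPA receptors from the synapse. Its level was 42.5, 36.9, 46.1, 57.1 and 42.3 CPM in KO mice 1 to 5, against 57.2, 55.8, 53.3, 60.2 and 41.2 CPM in WT mice 1 to 5. Of the KO mice, 4 lay below 4 of the WT mice, while KO mouse 4 was among the WT values and WT mouse 5 among the KO values. On the log2 scale Arc differed by -0.25 (SE 0.10, 95% interval -0.47 to -0.03, edgeR adjusted p 0.788), KO over WT, and an exact two-sided permutation of the 10 mice gave p = 0.135. It was between -0.35 and -0.19 when single mice were left out. The smallest p that 5 against 5 mice allow is 0.00794.

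Plk2 (chr13:110395046-110400844, plus strand) encodes an activity-induced polo-like kinase that phosphorylates spine proteins and is known for weakening synapses after sustained firing. It was at 147.1, 140.5, 132.3, 139.1 and 155.5 CPM in KO mice 1 to 5, against 156.1, 160.2, 140.7, 175.5 and 146.3 CPM in WT mice 1 to 5. KO mice 2, 3 and 4 were below the lowest WT mouse, and KO mouse 5 was close to the WT mean. The fold change of Plk2 was -0.12 on the log2 scale (SE 0.056, 95% interval -0.24 to -0.0057, edgeR adjusted p 0.788), the exact permutation p was 0.103, and without WT mouse 4 it was -0.078.

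Homer1 (chr13:93299635-93405129, plus strand) encodes a scaffold that links metabotropic glutamate receptors to other postsynaptic proteins. Its short form, Homer1a, is the activity-induced one and interferes with that link. The annotation gives 12 transcripts for the gene, with coding lengths of 540 to 1110 bases where there is a coding part. The table holds 1 row for all of them, so the short and the long forms cannot be told apart. Homer1 was at 62.9, 67.3, 65.3, 67.8 and 64.4 CPM in KO mice 1 to 5, against 74.2, 70.2, 70.4, 66.1 and 70.4 CPM in WT mice 1 to 5. The KO mice all lay below 4 of the WT mice, and WT mouse 4 lay among them. The variation between mice was the smallest of the set relative to the level in KO, with a coefficient of variation of 3.06% in KO mice and 4.07% in WT mice. Homer1 had a fold change of -0.10 on the log2 scale (SE 0.040, 95% interval -0.18 to -0.02, edgeR adjusted p 0.788) and the exact permutation p was 0.0238. After a correction for GC content and transcript length within libraries it was -0.0062 (SE 0.050). The transcript used for Homer1 in that correction, the one with the longest coding part, has a GC content of 37.8%, and 1.12% of genes had a lower one.

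The neuronal pentraxins are secreted or membrane-anchored proteins that gather AMPA receptors at synapses. Nptx2 (chr5:144545902-144557478, plus strand) was at 12.3, 13.2, 11.8, 14.1 and 13.6 CPM in KO mice 1 to 5, against 11.4, 15.7, 17.6, 20.4 and 16.1 CPM in WT mice 1 to 5. All KO mice lay below 4 of the WT mice, but WT mouse 1 had the lowest value of all 10. The WT mice were more spread, with a coefficient of variation of 20.2% against 7.12% in KO mice. Nptx2 had a log2 fold change of -0.32 (SE 0.11, 95% interval -0.56 to -0.08, edgeR adjusted p 0.788) and the exact permutation p was 0.0873. It was -0.43 (adjusted p 0.281) without WT mouse 1 and -0.23 without WT mouse 4.

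Nptx1 (chr11:119538719-119547753, minus strand) showed no such difference. It was at 1461, 1437, 1556, 1492 and 1668 CPM in KO mice 1 to 5, against 1568, 1519, 1528, 1442 and 1505 CPM in WT mice 1 to 5. The groups were interleaved, with KO mouse 5 the highest and KO mouse 2 the lowest. Its log2 fold change was 0.0098 (SE 0.040, edgeR adjusted p 0.978), and the 95% interval ran from -0.07 to 0.09, or 0.949-fold to 1.07-fold.

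Nptxr (chr15:79786351-79804766, minus strand), the membrane-anchored pentraxin, was at 16.1, 16.2, 15.9, 13.9 and 17.9 CPM in KO mice 1 to 5, against 18.1, 12.8, 13.2, 15.8 and 21.9 CPM in WT mice 1 to 5. The KO mice lay inside the range of the WT mice. Nptxr differed by -0.03 on the log2 scale (SE 0.12, 95% interval -0.28 to 0.23, edgeR adjusted p 0.982). The gene overlaps Npcd on the same strand of chromosome 15 in the annotation, and Npcd was listed at 0 counts in all libraries. How reads shared by the pair were counted is not given in the sources used here, so the Nptxr level is uncertain.

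The ratio of Nptx2 to Nptx1 within each mouse asks whether the pentraxins differed in their response. On the log2 scale it was -6.87 ± 0.129 in KO mice and -6.57 ± 0.348 in WT mice (SD, n = 5 each), a difference of -0.31 with an exact permutation p of 0.103. The log2 ratio of Nptx2 to Nptxr was -0.30 ± 0.183 in KO mice and -0.0063 ± 0.512 in WT mice, a difference of -0.29 with an exact permutation p of 0.270. The ratio to Nptxr shares the uncertainty of the Nptxr level. The adjusted p over the 3 pentraxin pairs was 0.310 and 0.405 for these ratios. A different response of Nptx2 from its relatives was therefore not shown, although the fold changes of Nptx2 and Nptx1 were -0.32 and 0.0098. The Nptx2 to Nptx1 difference was -0.44 without WT mouse 1 and -0.20 without WT mouse 4, and the Nptx2 to Nptxr difference was -0.46 without WT mouse 1 and -0.19 without WT mouse 3.

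**Figure D2:**
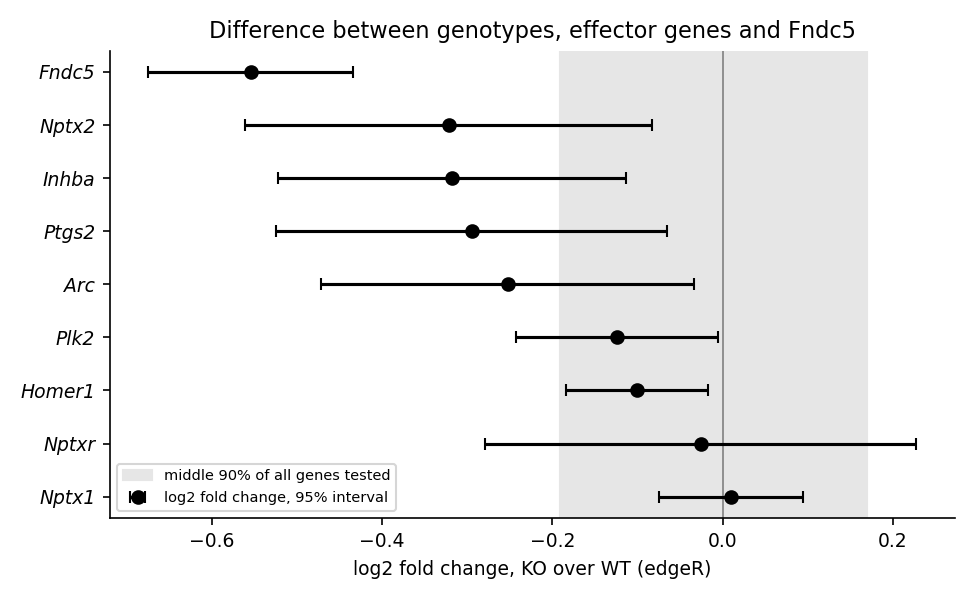
Log2 fold change, KO over WT, of the 8 effector genes and Fndc5 from edgeR, with 95% intervals as bars and the middle 90% of all tested genes (-0.19 to 0.17) in grey. Nptx2, Inhba, Ptgs2 and Arc lie left of the grey band, Plk2, Homer1, Nptxr and Nptx1 within it, and Fndc5 is the one gene past the adjusted threshold.

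Ptgs2 (chr1:150100031-150108227, plus strand) encodes cyclooxygenase 2, the inducible enzyme of prostaglandin synthesis, which in the hippocampus is made by excitatory neurons. It was at 30.3, 34.8, 25.9, 30.5 and 37.7 CPM in KO mice 1 to 5, against 34.9, 44.5, 29.9, 43.2 and 43.1 CPM in WT mice 1 to 5. WT mice 2, 4 and 5 were above every KO mouse, and WT mice 1 and 3 lay among the KO mice. Ptgs2 had a log2 fold change of -0.29 (SE 0.11, 95% interval -0.52 to -0.07, edgeR adjusted p 0.788) and the exact permutation p was 0.103. It was between -0.38 and -0.23 with single mice left out, and -0.22 after the GC and length correction. Antisense rows next to the gene were low. Ptgs2os had 19 to 45 counts and a log2 fold change of 0.20, and Ptgs2os2 had 5 to 20 counts and -0.70 (unadjusted edgeR p 0.0264).

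Inhba (chr13:16011851-16031621, plus strand) encodes the subunit whose dimer is activin A, a secreted growth factor induced in granule neurons by strong firing. It was at 12.4, 10.2, 13.3, 13.5 and 13.6 CPM in KO mice 1 to 5, against 13.4, 16.1, 17.3, 18.2 and 13.4 CPM in WT mice 1 to 5. WT mice 2, 3 and 4 were above every KO mouse, and WT mice 1 and 5 lay among the upper KO values. Inhba differed by -0.32 on the log2 scale (SE 0.097, 95% interval -0.52 to -0.11, edgeR adjusted p 0.788), the exact permutation p was 0.0556, and single mice left out gave values between -0.37 and -0.25. After the GC and length correction Inhba was at -0.249. On the opposite strand the annotation places B230303A05Rik, with 275 to 615 counts and a log2 fold change of 0.02. Whether the counting used strand is not stated, so reads of the pair may be mixed.

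Averaged over the 8 genes as log2 differences from the WT mean, KO mice 1 to 5 were at -0.21, -0.23, -0.22, -0.13 and -0.08, against -0.05, 0.0031, -0.06, 0.11 and -0.0065 in WT mice 1 to 5. KO mouse 5 was the KO mouse nearest to WT, and WT mouse 4 was the highest. In KO mice 1 and 2 all 8 genes were below their WT mean, in KO mice 3 and 4 it was 7, and in KO mouse 5 it was 6. In WT mice 1 to 5 it was 3, 3, 4, 3 and 5. The share of all tested genes below their WT mean in each mouse was not counted, so these counts are a description only. Marker genes of cell types were summed per library for comparison. The 9 granule neuron markers, all tested and none at 0, summed to between 2114 and 2279 CPM in KO mice and between 1946 and 2229 CPM in WT mice, with the lowest value in WT mouse 1. Of these 9 markers 7 were higher in KO, and 0 passed the adjusted threshold. Lct and Dsp, 2 of the 7, had an unadjusted p under 0.05 in edgeR (log2 fold changes 0.12 and 0.16). Over all 14867 genes tested, 7542 were higher in KO, 378 of them at that p. The 11 interneuron markers, all tested and none at 0, summed to between 675.1 and 727.7 CPM in KO mice and between 686.0 and 807.9 CPM in WT mice, with the highest value again in WT mouse 1, which also had the lowest Nptx2. Of these 11 markers 9 were lower in KO, 3 of them at an unadjusted p under 0.05 in edgeR and 0 past the adjusted threshold, beside 49.3% of all genes lower and 3.75% lower at that p. Sums of the pyramidal, mossy cell, astrocyte, microglial, oligodendrocyte and endothelial markers overlapped between the genotypes, and no marker was at 0. WT mouse 1 was also the lowest WT mouse for the pyramidal (513.2 CPM), microglial (263.5), oligodendrocyte (1387) and endothelial (138.7) sums. It was not the lowest for the mossy cell and astrocyte sums. Why this library differed was not tested. The part of cell composition in the results was not tested.

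**Figure D3:**
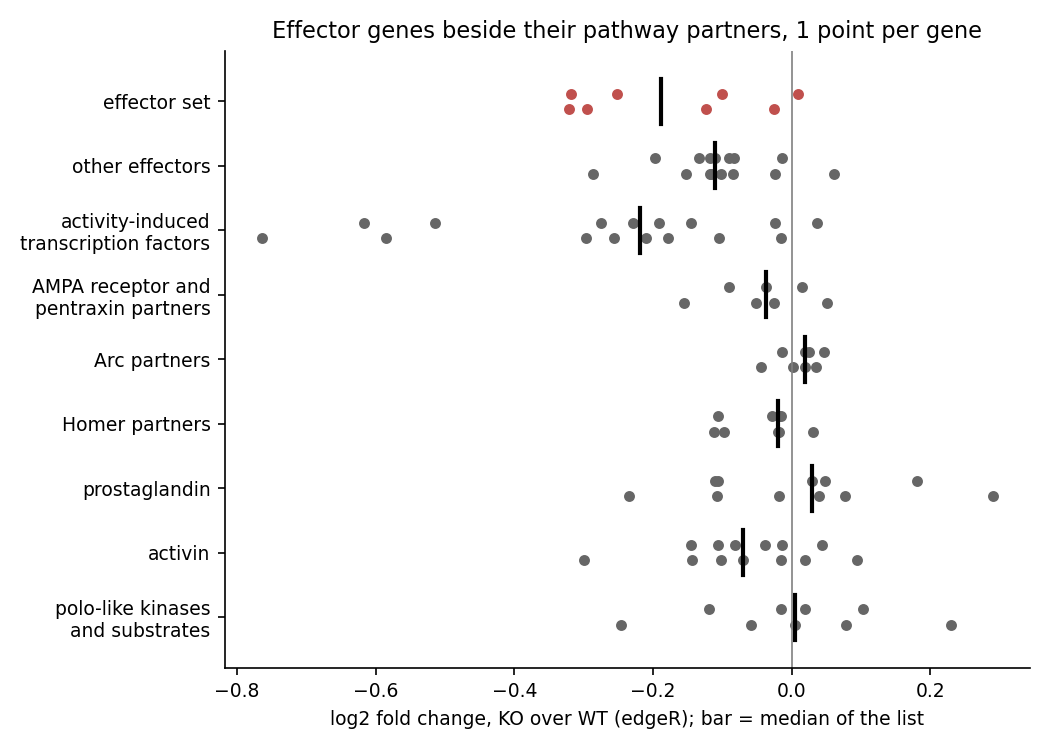
Log2 fold change, KO over WT (edgeR), of each tested gene in the effector set (red), in further activity-induced genes and in the pathway lists, with a bar at the median of each list. Medians are -0.19 for the effector set, -0.11 for other effectors and -0.22 for the activity-induced transcription factors, and between -0.07 and 0.03 for the 6 pathway lists, in which single genes reach -0.30 (Acvr1c) and 0.29 (Ptges).

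Outside the set were 15 further activity-induced genes that encode no transcription factor. Of these, 14 were lower in KO and 1 higher, beside 49.3% of all genes lower. Their median log2 fold change was -0.11, and 0 passed the adjusted threshold. Scg2, a granin of dense-core vesicles, had -0.12 (SE 0.043), the G-protein regulator Rgs4 had -0.13 (SE 0.052), and the neuropeptide precursor Vgf had -0.10 (SE 0.049), with edgeR adjusted p of 0.788, 0.788 and 0.789. Vgf was at -0.07 without WT mouse 1. Of 16 activity-induced transcription factors 15 were lower, beside the same 49.3% of all genes, with a median of -0.22 and 0 past the threshold. Npas4, Fosb and Fosl2 had -0.76 (SE 0.15), -0.51 (SE 0.10) and -0.21 (SE 0.046), with edgeR adjusted p of 0.560, 0.560 and 0.788. Npas4 had an adjusted p of 0.00627 and Fosb of 0.00815 in DESeq2, and Npas4 had 0.0176 in edgeR without WT mouse 1. The range was -0.76 to 0.04 for the transcription factors and -0.32 to 0.0098 for the effector set. Whether the lists differ was not tested. All lists come from the same 10 mice and were chosen with earlier results of these data known, so their counts are a description only.

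The receptors and partners through which the effectors act had list medians of -0.07 to 0.03, with 0 genes past the adjusted threshold in any of the 6 lists. The counts of lower genes in these lists stand beside 49.3% of all genes lower in KO. Of 7 AMPA receptor and pentraxin partner genes, 5 were lower and 2 higher (median -0.04). The AMPA subunit Gria4 had a log2 fold change of -0.15 (SE 0.055, edgeR adjusted p 0.788). The secreted synaptic protein gene C1ql3 was at -0.05 and Adam17, the gene of a protease that sheds membrane proteins, was at -0.09, and without WT mouse 3 they were at -0.031 and -0.030. Of 8 Arc partners, 2 were lower and 6 higher (median 0.02), with the scaffold gene Dlg4 at 0.04, the dynamin gene Dnm2 at 0.05 and the endophilin gene Sh3gl3 at -0.04. Without WT mouse 2 Dnm2 was at 0.015 and Sh3gl3 at -0.017. Of 9 Homer partners, 8 were lower and 1 higher (median -0.02), with the metabotropic glutamate receptor gene Grm5 at -0.11 and the scaffold gene Homer2 at -0.10. With single mice left out Grm5 was between -0.17 (without KO mouse 2) and -0.07 (without WT mouse 2), and Homer2 between -0.15 (without WT mouse 3) and -0.05 (without WT mouse 1, and likewise without KO mouse 3).

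For the secreted signals, 12 prostaglandin genes were listed and 11 tested, Ptger3 being below the count filter. Of these, 5 were lower and 6 higher (median 0.03). The prostaglandin E synthase gene Ptges had 0.29 (SE 0.15) at 2.09 ± 0.377 CPM in KO mice and 1.71 ± 0.197 CPM in WT mice, Ptges3 had -0.11 and the phospholipase gene Pla2g4a had -0.23 (SE 0.17; -0.36 without WT mouse 1). Ptges and Ptgs2 thus had fold changes of opposite sign, with edgeR adjusted p of 0.789 and 0.788. Of 13 activin pathway genes, 10 were lower and 3 higher (median -0.07). Acvr1c, which encodes a type I receptor of this family, had -0.30 (SE 0.12, edgeR adjusted p 0.788) at 24.6 ± 2.30 CPM in KO mice and 30.2 ± 7.47 CPM in WT mice, and -0.16 without WT mouse 2. The inhibitory Smad7 was at -0.14 (-0.08 without WT mouse 4) and the receptor gene Acvr1 at -0.08 (-0.05 without WT mouse 3). Among 9 polo-like kinase and substrate genes, 4 were lower and 5 higher (median 0.0056), with the Plk2 substrate gene Rasgrf1 at 0.08 (SE 0.032), Plk1 at 0.23 (0.15 without WT mouse 1) and Plk4 at -0.25.

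The effectors were also compared from mouse to mouse within the genotypes. After removal of the genotype means, the 28 pairs of the 8 genes had a median Pearson r of 0.04 over the 10 mice, 17 pairs positive and 11 negative, between -0.61 for Homer1 with Nptx2 and 0.68 for Ptgs2 with Plk2. No pair passed an exact permutation within genotypes at an unadjusted p of 0.05 for r with TMM scaling, and 1 did with upper-quartile scaling (lowest exact permutation p 0.04, adjusted 0.542). For Ptgs2 with Plk2 the exact permutation p was 0.0519 (adjusted over the pairs 0.576), Spearman's rho was 0.75 (exact permutation p 0.0319, adjusted 0.851), and r was 0.34 without WT mouse 3 and KO mouse 3. For Arc with Nptxr r was -0.60 (exact permutation p 0.0578, adjusted 0.576), rho was -0.55 (exact permutation p 0.125, adjusted 0.851), and r was -0.16 without WT mouse 5 and KO mouse 4. For Arc with Inhba r was 0.64 (exact permutation p 0.0689, adjusted 0.576), rho was 0.50 (exact permutation p 0.182, adjusted 0.851), and r was 0.56 without WT mouse 5 and KO mouse 4. Covariation of the set among mice of a genotype was thus not detectable with 10 mice, and the p-values do not show that it is absent.

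**Figure D4:**
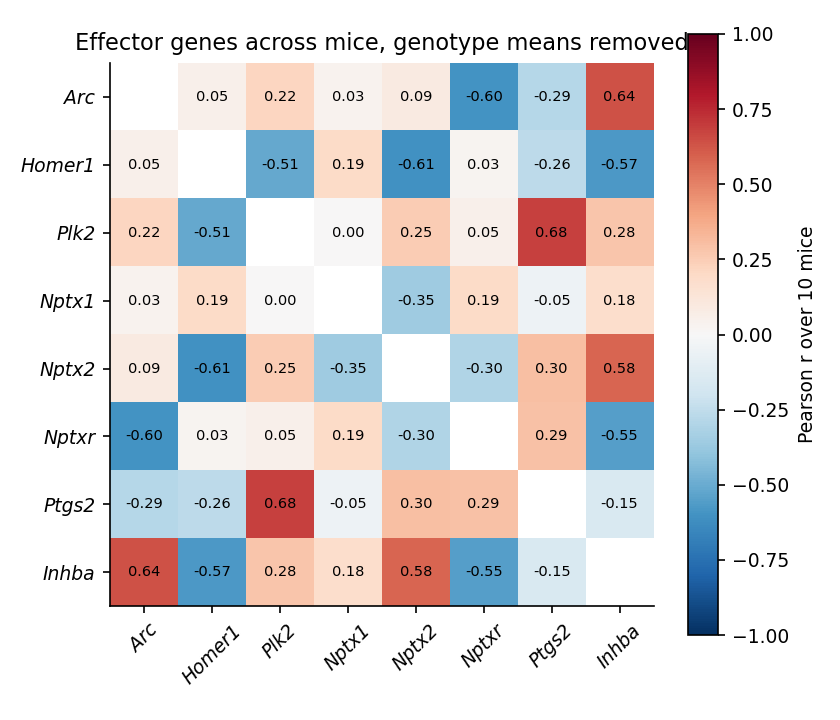
Pearson r between each pair of effector genes over 10 mice, on log2 CPM with the mean of each genotype removed, red for positive and blue for negative values. The signs are mixed, from -0.61 (Homer1 with Nptx2) to 0.68 (Ptgs2 with Plk2).

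The transcripts differ in a feature tied to RNA turnover, the pentamer ATTTA in the 3′ untranslated region, the core of AU-rich elements that shorten the life of many induced mRNAs. On the transcript with the longest coding part, Homer1 held 19 copies in 2903 bases, or 6.54 per kilobase, Ptgs2 14 copies in 2448 bases, or 5.72 per kilobase, and Inhba 21 copies in 4495 bases, or 4.67 per kilobase. The short-coding Homer1-204 held 17 copies in 4352 bases, and the other Homer1 transcripts 0 to 13, so the Homer1 value depends on the transcript taken. Over the 13100 tested genes with at least 100 bases of this region the median was 1.33 per kilobase, and 97.0%, 95.4% and 92.3% of genes were below Homer1, Ptgs2 and Inhba. Plk2 had 3.21 and Nptx2 1.84 per kilobase. Nptxr had 0.299 and Nptx1 0.266 per kilobase, and Arc held 0 copies in 1671 bases. The pentamer holds no G or C, and the same transcripts of Homer1, Ptgs2 and Inhba are low in GC. Of genes, 1.12%, 4.28% and 7.64% had a lower GC content than these. For Arc, Nptxr and Nptx1 it was 92.0%, 94.0% and 73.4%, and for Plk2 and Nptx2 36.7% and 89.6%. The part of base composition in these counts was not tested. These are counts of letters, and no turnover was measured.

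**Figure D5:**
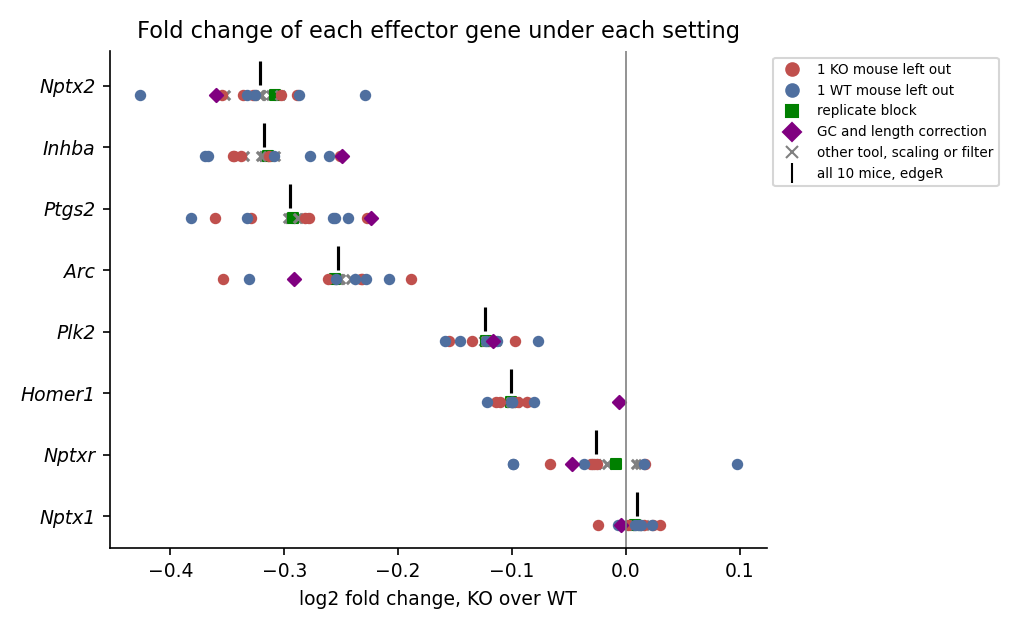
Log2 fold change, KO over WT, of each effector gene with all 10 mice in edgeR (black bar) and under every other setting, with red and blue points for fits without 1 KO or 1 WT mouse, a green square for the replicate block and a purple diamond for the GC and length correction. Nptx2, Inhba, Ptgs2, Arc, Plk2 and Homer1 are below 0 in every fit shown, Homer1 is at -0.0062 with the GC and length correction, and Nptxr and Nptx1 cross 0.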

How the data were processed

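Raw, not normalized read counts per gene were deposited by the authors for 10 libraries, with totals of 26226375 to 43802079 counts. The build mm10 and the tools Cufflinks 2.2.1 and STAR 2.5.1b are named, per the submitters' processing notes, without role or order. Stranded libraries were read as single ends of 75 bases, per the labels' protocols. Neither the strand rule of the counter nor its handling of multi-mapped reads is given in the sources used here.

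Groups follow the titles, and 1 mouse gave 1 library. The effector genes and all lists were chosen with earlier results of these data known. Genes were filtered with filterByExpr, scaled by TMM and compared with edgeR 4.0.16 (glmQLFit, glmQLFTest, genotype as the only term) in R 4.3.3, with Benjamini-Hochberg adjustment over 14867 genes. Log2 CPM used a prior count of 2. Single values were permuted exactly over 252 assignments, pairs of genes over 14400 pairings within genotypes. Named genes were the 8 effectors, Fndc5, up to 3 genes per pathway list with the smallest p, and the genes most like the effectors across mice; other named genes were chosen after their values were seen, and 1 gene that the rule names is not reported here. Steps were tested on simulated data. Alternatives were DESeq2 1.42.0, upper-quartile scaling, DESeq2 size factors in edgeR, no filter, a filter at 1 CPM in 5 libraries, a block for mouse number, limma-voom 3.58.1 without and with sample weights, each library left out, and, chosen after seeing the data, a spline correction for GC content and transcript length. Coordinates are GRCm38, 1-based. Same-numbered mice correlated at 0.209, 0.204, 0.108, 0.00901 and 0.0282 after removal of genotype means. All of these values were positive, and they do not settle whether the numbers mark pairs. No label names a pairing, so the main fit did not treat mice as pairs, and the block was run as an alternative.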

Additional observations from a re-analysis of the deposited data

How the results depend on the processing

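No effector gene passed the adjusted threshold in any of 19 alternatives, and 6 to 8 of the 8 were lower in KO, with medians of -0.21 to -0.15. The number of genes past the threshold over the whole table was 3 with the DESeq2 Wald test, 8 with the replicate block and 1 to 3 with single mice left out, and the cause was not tested. With the block Ptgs2 had an edgeR adjusted p of 0.0549, the lowest of any effector gene under any setting (log2 fold change -0.29), and it changed no effector call. Npas4, a transcription factor outside the set, had an edgeR adjusted p of 0.0362 with it. With the block 1493 genes had an unadjusted edgeR p under 0.05, against 935 without it. Of the mice, 6 of 10 correlated best with their own number, a hint from the data and not a stated design. The sample descriptions number the KO and WT mouse of each number next to each other. What that order stands for is not given, and no label names a pairing. Nptxr had log2 fold changes of 0.0094 with limma-voom and 0.012 with sample weights, and between -0.10 and 0.098 with single mice left out. Nptx1 was at -0.0037 after the GC and length correction and between -0.025 and 0.030 with single mice left out. No pair of effector genes passed the adjusted threshold with upper-quartile scaling. With 5 mice per genotype the precision was lowest for Nptxr, whose 95% interval was -0.28 to 0.23.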

Other observations

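The genes whose levels most resembled the mean of the 8 standardised effector genes across the 10 mice, with genotype means removed, were Kif7 (Pearson r 0.93), Rcbtb1 (0.92), Pnma3 (0.92), Map3k5 (0.91) and St13 (0.91). The effectors' own r with this mean ran from -0.25 (Homer1) and 0.04 (Nptxr) to 0.71 (Plk2). Likeness to the mean is therefore not likeness to each effector. For single effectors the closest genes were Tmem114 for Arc (0.96), G6pdx for Homer1 (0.97), Sgf29 for Nptx1 (0.93), Syt15 for Nptx2 (0.95), Sept9 for Nptxr (0.98), Setd5 for Ptgs2 (0.97), Ccdc43 for Inhba (0.92) and Tdgf1 for Plk2 (0.93). Each was picked as the highest among all tested genes over 10 libraries, so these values carry no p. For single effectors none of the closest genes was another effector, which was likely beforehand with so few effectors among all tested genes. In the search for the mean the effectors were left out. Neither bears on whether the effectors vary together. Among the activity-induced transcription factors, Egr1 (0.77), Fosb (0.71) and Egr3 (0.66) had the highest r with the effector mean and Jun the lowest (-0.75). These were named after their values were seen.

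Of 16 groups of 5 effector values checked, 0 held a library far from the others of its genotype, where about 0.8 would be found by chance.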
